A study of Mus musculus with 12 samples.

Results

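The liver transcriptome after 2 weeks of a steatohepatitis diet was described from 4 of the 12 arrays of the series, those whose titles name the 2-week livers: 2 of mice on CDAHFD and 2 of controls. All mice were male C57BL/6NJcl, and those of the 2-week groups were 8 weeks old. Controls ate the standard chow CE-2. CDAHFD is a high-fat diet without added choline whose protein is replaced by L-amino acids, with 60 kcal% fat and 0.1% methionine. The chow and the diet differ in more than choline, so the comparison is of the whole diets. Arrays of the same diets after 1 and 6 weeks, at 7 and 12 weeks of age, entered as a measure of spread and for the comparison over time. Whether replicates are separate mice is not given in the labels, so p-values reflect only the spread among these arrays, and that spread may be technical.

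Choline is needed to make phosphatidylcholine, the main phospholipid of the shell of very-low-density lipoprotein, the particle in which the liver exports triglyceride. Without choline and with little methionine, from which the liver makes phosphatidylcholine by methylation, fat is retained in hepatocytes. Steatohepatitis is the state in which fatty liver is joined by inflammation and injury of hepatocytes, and fibrosis follows when stellate cells lay down collagen. The comparison at 2 weeks asks how far these processes can be seen in RNA early in feeding. In bulk tissue, fewer cells of a type and less RNA per cell cannot be told apart.

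Each array measured 55681 gene probes, of which 28664 were named through RefSeq with 21613 symbols. At 2 weeks, 40.4 to 42.7% of probes were well above background on the control arrays and 46 to 46.8% on the CDAHFD arrays, and the number of arrays limits the precision. The leading principal component of 11 arrays carried 75% of the variance, and on it the 2-week controls lay at -65.9 and -56.3 and the 2-week CDAHFD arrays at 51 and 55.2. Control replicate 1 at 1 week, which has a dim corner, was left out of the fit. All 2-week arrays were on 1 slide, the controls in column 3 and the CDAHFD arrays in column 4, so diet and slide column cannot be told apart. Liver identity was clear on all 4 arrays: albumin (Alb) was at 5.41 and 5.37 on the control arrays and 5.22 and 5.23 on the CDAHFD arrays. Levels are log2 processed signals relative to the array's 75th percentile over probes above background on all arrays fitted, so a gene at 0 is as bright as that percentile, and the levels of Alb were far above it in both diets.

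A difference is CDAHFD minus control on the log2 scale minus the median difference over all genes (0.06), with its standard error (SE) from the limma fit, and lies 0.06 below the difference of the levels. A gene is called where the limma test of its difference before that shift had a Benjamini-Hochberg adjusted p below 0.05 over 13333 genes, and 0 calls changed sign with the shift. Of these genes 5271 were called (39.5%), 3258 higher on CDAHFD (24.4%) and 2013 lower (15.1%). Called and at least 2-fold higher were 1864 (14%), and at least 2-fold lower 569 (4.27%). At least 8-fold changes were mostly gains, with 233 genes higher and 19 lower. In all 5271 called genes the values of the diets did not overlap, which also held for 72.5% of all genes. Above background on both CDAHFD arrays and on no control array were 843 genes, against 49 in the reverse. For such a gene a fold is given as "at least", from the dimmest signal above background, since its level on the dim side is only bounded. A list median "at bounds" sets such genes at that bound. The counts of 2-fold and 8-fold changes use the measured differences of such genes and not their bounds. Some gains counted as at least 8-fold therefore have bounds below 8-fold, and the excess of gains rests in part on control signals below background. Among genes ordered by brightness, the median difference was 0.41 in the dimmest 20% and -0.28 in the brightest 20%, so high and low calls followed brightness, and the part of brightness in them was not tested.

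The share of calls that were higher, 61.8%, rested on scaling: it was 39.8% with median centring, 39.8% with the percentile over all probes, 38.6% with normexp background correction and 44.1% with no filter, settings under which the median difference of all genes before the shift was -0.16, -0.15, -0.14 and -0.15 in place of 0.06. Without CDAHFD replicate 2 at 2 weeks 3389 genes were called, and the count of lower calls was 1086. That count was 1273 without CDAHFD replicate 1 and 1336 without control replicate 1 at 2 weeks. Where an array is named below by its number alone, it is the 2-week replicate of that number.

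**Figure D1:**
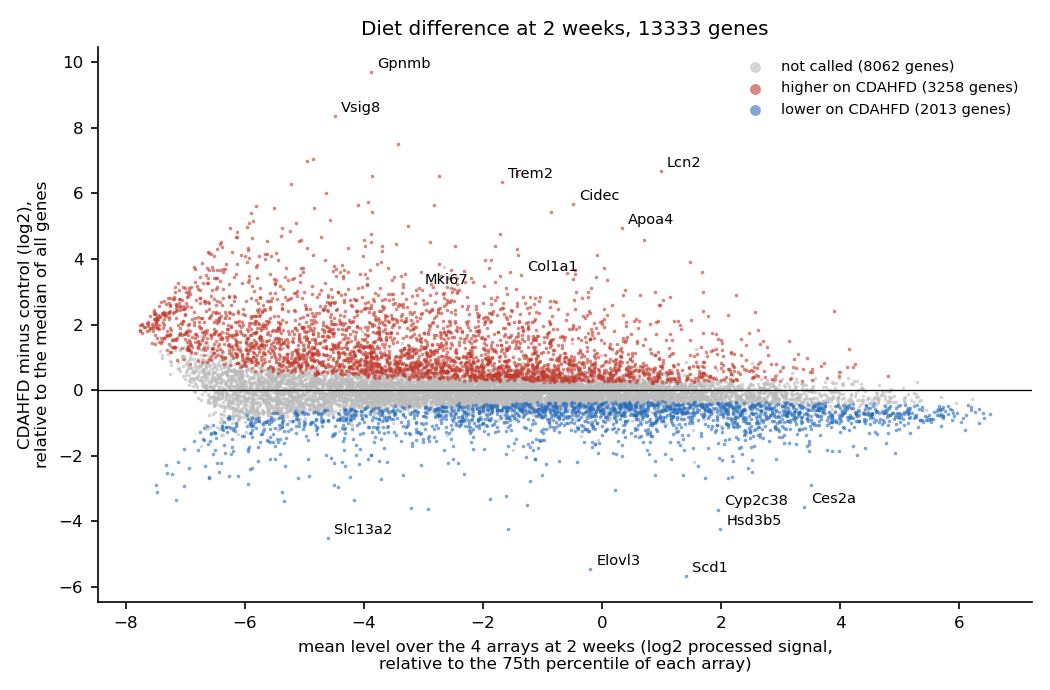
Difference of each of 13333 genes at 2 weeks (CDAHFD minus control, log2, vertical axis) against its mean level over the 4 arrays (log2, horizontal axis), with called genes in colour. The 3258 higher genes reach further from 0 than the 2013 lower genes, and Gpnmb lies at the top and Scd1 at the bottom.

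The 15 largest gains were led by Gpnmb. Gpnmb, a glycoprotein of lipid-laden macrophages, was not well above background in controls, at -8.60 and -8.92 on the control arrays and 0.84 and 1.14 on the CDAHFD arrays. Both CDAHFD arrays lay far above both controls, at least 177-fold higher, adjusted p = 1.1e-07. Vsig8, an immunoglobulin-domain protein, was at -8.53 and -8.86 on the control arrays and -0.28 and -0.27 on the CDAHFD arrays (at least 73.5-fold higher, adjusted p = 2.9e-08). Lcn2, a siderophore-binding protein secreted by injured epithelia, was at -2.75 and -2.01 on the control arrays and 4.32 and 4.38 on the CDAHFD arrays, a difference of 6.67 ± 0.22, adjusted p = 4.2e-07. Both genes were high on both CDAHFD arrays, and the diets did not overlap. Cidec, a protein that fuses lipid droplets, was at -3.25 and -3.48 on the control arrays and 2.46 and 2.30 on the CDAHFD arrays, a difference of 5.68 ± 0.31, adjusted p = 3.3e-06. Its values within a diet lay close together and far from those of the other diet. Also among the 15 largest gains were Ly6d (6.58 ± 0.35), a GPI-anchored surface protein, the leukocyte metalloprotease Adam8 (6.52 ± 0.27, above background on 1 of the 2 control arrays), Ubd (7.51 ± 0.80, above background on 1 of the 2 control arrays), a cytokine-induced ubiquitin-like protein, the oxysterol-binding protein Osbpl3 (5.72 ± 0.56, above background on 1 of the 2 control arrays) and the fatty acid elongase Elovl7 (5.65 ± 0.36, above background on 1 of the 2 control arrays). Bounded by background in controls were Timp1 (at least 32.9-fold higher), the inhibitor of metalloproteinases, the C-type lectin Clec4d of myeloid cells (at least 59.6-fold higher), the chitinase-like protein Chil3 (at least 29.3-fold higher) and Sprr1a (at least 36-fold higher), a cornified-envelope protein of squamous cells. Dmbt1, a mucosal scavenger receptor protein, was at -8.31 and -8.50 on the control arrays and -0.40 and -3.72 on the CDAHFD arrays (at least 21.4-fold higher). Its CDAHFD arrays were far apart, and its differences at 1 and 6 weeks were -0.28 and -4.24. Other settings ended the call for Dmbt1 with normexp background correction and all 12 arrays (adjusted p = 0.1 to 0.31). With 1 array left out, the call ended for Dmbt1 without CDAHFD array 1 (adjusted p = 0.063).

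The 15 largest losses were led by Scd1. Scd1, the stearoyl-CoA desaturase that makes monounsaturated fatty acids, was at 4.29 and 4.15 on the control arrays and -1.96 and -0.83 on the CDAHFD arrays, a difference of -5.68 ± 0.91, adjusted p = 0.0021. Its CDAHFD replicates differed from each other, yet both lay far below the controls. Elovl3, an elongase of long-chain fatty acids, was at 3.0 and 1.98 on the control arrays and -2.90 and -2.89 on the CDAHFD arrays, a difference of -5.45 ± 0.45, adjusted p = 3.8e-05. Ces2a, a carboxylesterase, was at 5.34 and 4.98 on the control arrays and 1.80 and 1.49 on the CDAHFD arrays, a difference of -3.57 ± 0.21, adjusted p = 4.5e-06. Both were low on both CDAHFD arrays. Others among the 15 largest losses were the dicarboxylate transporter Slc13a2 (-4.52 ± 0.23), the P450 enzymes Cyp2c38 (-3.64 ± 0.20) and Cyp3a41b (-3.22 ± 0.23), the adhesion receptor Adgrf1 (-3.59 ± 0.32), the manganese exporter Slc30a10 (-3.34 ± 0.23), the transcription factor Pax2 (-3.51 ± 0.22), the proteoglycan Cspg5 (-3.37 ± 0.52, above background on 1 of the 2 CDAHFD arrays) and Hnf4aos (-3.33 ± 0.56), transcribed antisense to Hnf4a. Srms, a tyrosine kinase, fell below background (at least 2.96-fold lower). Hsd3b5, a hydroxysteroid dehydrogenase of male livers, was at 4.12 and 4.02 on the control arrays and -0.39 and 0.21 on the CDAHFD arrays, a difference of -4.23 ± 1.08, adjusted p = 0.018. Controls of Hsd3b5 lay together and above both CDAHFD arrays, and its difference at 6 weeks was -9.17. The call of Hsd3b5 was lost in 4 of the 11 fits that each left out 1 array (adjusted p = 0.063 to 0.098).

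Genes that make fatty acids and sterols moved unevenly. Of fatty acid synthesis and desaturation genes 2 of 21 measured members were higher and 8 lower, with a median of -0.41, against 24.4% higher and 15.1% lower of all genes, whose median is 0. Besides Scd1 and Elovl3, the acetyl-CoA synthetase Acss2 (-1.59 ± 0.14, adjusted p = 2.8e-05), malic enzyme Me1 (-1.26 ± 0.21) and the carbohydrate-responsive factor Mlxipl (-1.04 ± 0.18) fell, whereas the core enzymes Fasn (-0.41 ± 0.64, adjusted p = 0.7) and Acaca (-0.03 ± 0.22, adjusted p = 0.91) did not pass. Another desaturase moved against Scd1: Scd2 was at -3.21 and -3.01 on the control arrays and -1.56 and -1.37 on the CDAHFD arrays, a difference of 1.58 ± 0.18, adjusted p = 9.2e-05. Both CDAHFD arrays of Scd2 were above both controls. Of cholesterol synthesis genes 2 of 25 measured members were higher and 9 lower, with a median of -0.37. The epoxidase Sqle (0.34 ± 0.44, adjusted p = 0.49) did not pass, while the sterol reductase Tm7sf2 (-1.71 ± 0.13, adjusted p = 1.1e-05), the isomerase Ebp (-1.21 ± 0.15) and the sterol sensor Insig1 (-1.1 ± 0.25) fell. Lower fatty acid synthesis genes numbered 5 without control array 1 or CDAHFD array 2. Lower cholesterol synthesis genes numbered 5 without control array 2 or CDAHFD array 1. Single arrays carried the call, which was lost for Insig1 without control array 1 and CDAHFD array 2 (adjusted p = 0.058 to 0.075).

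Genes for the uptake and storage of fat moved both ways. Of lipid droplet and triglyceride genes 10 of 28 measured members were higher and 5 lower, with a median of 0.42 (0.36 at bounds), against 24.4% higher and 15.1% lower of all genes. Plin4, a coat protein of lipid droplets, was at -2.27 and -1.26 on the control arrays and 1.33 and 0.87 on the CDAHFD arrays, a difference of 2.80 ± 0.37, adjusted p = 0.00033, and Plin2 (0.55 ± 0.22, adjusted p = 0.052), the main droplet coat of fatty liver, fell just short of the threshold. Plin2 passed with only the 2-week arrays (adjusted p = 0.0051) and with quantile normalization (adjusted p = 0.0053). The fatty acid translocase Cd36 was at -2.75 and -2.38 on the control arrays and 0.14 and 0.48 on the CDAHFD arrays, a difference of 2.81 ± 0.24, adjusted p = 2.3e-05. The Cd36 arrays of both diets were far apart. Lipoprotein lipase, Lpl (2.58 ± 0.19, adjusted p = 1e-05), and the adipocyte and macrophage fatty acid binding protein Fabp4 (1.55 ± 0.16) rose as well, while Slc27a5 (-1.31 ± 0.21), the bile acid and very-long-chain acyl-CoA ligase of hepatocytes, fell. Of fatty acid oxidation and ketogenesis genes 3 of 30 measured members were higher and 6 lower, with a median of -0.28: the carnitine transferase Cpt1a (0.79 ± 0.21) and the pantetheinase Vnn1 (1.51 ± 0.32) rose, and the inner-membrane carnitine transferase Cpt2 (-0.93 ± 0.20) and the mitochondrial thiolase Acaa2 (-0.71 ± 0.16) fell. The fasting and nutrient-stress hormone Fgf21, a target of PPAR-alpha, was at -5.66 and -5.94 on the control arrays and -1.26 and -0.17 on the CDAHFD arrays, a difference of 5.02 ± 0.51, adjusted p = 8.4e-05. Both CDAHFD arrays were far above both controls. 3 of the lipid droplet and triglyceride genes were lower and 1 of the fatty acid oxidation genes was lower with quantile normalization. 3 of the lipid droplet and triglyceride genes were lower and 5 of the fatty acid oxidation genes were higher with the mean of the probes. 6 of the fatty acid oxidation genes were higher and 11 lower with only the 2-week arrays. Lower lipid droplet and triglyceride genes numbered 2 without control array 1 or CDAHFD array 2. Higher fatty acid oxidation genes numbered 6 without CDAHFD array 1 at 6 weeks or CDAHFD array 2 at 6 weeks. Lower fatty acid oxidation genes numbered 1 without control array 1, 2 without CDAHFD array 2 and 10 without CDAHFD array 1 at 6 weeks or CDAHFD array 2 at 6 weeks. In other settings the call ended for Cpt2 with the mean of the probes (adjusted p = 0.0527). With quantile normalization the sign of Acaa2 turned (0.09, adjusted p = 0.52). With single arrays left out, significance was lost for Cpt1a without control array 1 and CDAHFD arrays 1 and 2 (adjusted p = 0.0541 to 0.078), Cpt2 without control array 1 (adjusted p = 0.066) and Acaa2 without control array 1 and CDAHFD array 2 (adjusted p = 0.067 to 0.076).

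Lipoprotein and one-carbon genes, those nearest to the nutrients that CDAHFD lacks, had more lower than higher members in this fit. Of apolipoproteins and lipoprotein assembly genes 4 of 24 measured members were higher and 12 lower, with a median of -0.62. The triglyceride transfer protein Mttp (-0.59 ± 0.13), which loads lipid onto apolipoprotein B, Apob (-0.72 ± 0.17), and Apoc3 (-0.73 ± 0.16) fell. Apoa4, an apolipoprotein induced in fatty liver, was at -2.50 and -1.83 on the control arrays and 2.55 and 3.11 on the CDAHFD arrays, a difference of 4.93 ± 0.36, adjusted p = 1.4e-05. It was high on both CDAHFD arrays against the trend of its list, as was the sterol exporter Abcg1 (2.07 ± 0.21). Of choline, methionine and one-carbon genes 3 of 29 measured members were higher and 16 lower, with a median of -0.68. Pemt (-0.55 ± 0.15), which methylates phosphatidylethanolamine to phosphatidylcholine, and Bhmt (-0.91 ± 0.14), which uses betaine from choline, fell. Gnmt, which consumes S-adenosylmethionine, was at 5.77 and 5.92 on the control arrays and 4.12 and 3.87 on the CDAHFD arrays, a difference of -1.91 ± 0.23, adjusted p = 0.00022. Both of its CDAHFD arrays were below both controls. Transsulfuration fell with Cbs (-1.71 ± 0.27, adjusted p = 0.0012) and Cth (-1.39 ± 0.25), and so did the folate dehydrogenase Aldh1l1 (-1.11 ± 0.14). With quantile normalization the lipoprotein genes were evenly split, with 5 higher, 5 lower and a median of -0.14. Lower lipoprotein genes numbered 4 without control array 1 and 2 without CDAHFD array 2. Other settings ended the call for Apob with quantile normalization and the mean of the probes (adjusted p = 0.13 to 0.15), Apoc3 and Bhmt with quantile normalization (adjusted p = 0.29 to 0.34) and Pemt with quantile normalization and normexp background correction (adjusted p = 0.059 to 0.3). With 1 array left out, the call ended for Mttp, Apob, Apoc3 and Pemt without control array 1 and CDAHFD array 2 (adjusted p = 0.065 to 0.18).

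Of the methionine adenosyltransferases Mat2a and Mat1a, which make S-adenosylmethionine, only Mat2a was called, and they were not tested against each other. Mat2a, the form of dividing and non-hepatic cells, was at 1.61 and 1.80 on the control arrays and 3.18 and 3.12 on the CDAHFD arrays, a difference of 1.38 ± 0.11, adjusted p = 1.1e-05. The liver form Mat1a (-0.33 ± 0.23, adjusted p = 0.39) did not pass. The mitochondrial folate enzyme Mthfd1l was at -4.68 and -5.64 on the control arrays and -1.38 and -1.84 on the CDAHFD arrays, a difference of 3.49 ± 0.32, adjusted p = 3.4e-05. Both CDAHFD arrays of Mat2a and Mthfd1l were above the controls, with no overlap.

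Hepatocyte genes as a class were lower, by small steps. Of hepatocyte identity genes 0 of 24 measured members were higher and 15 lower, with a median of -0.58. Albumin itself (-0.22 ± 0.14, adjusted p = 0.4) did not pass. The nuclear receptor Hnf4a (-0.54 ± 0.12), which maintains the hepatocyte programme, transthyretin, Ttr (-0.84 ± 0.20), fetuin, Ahsg (-0.89 ± 0.14), and the factor Cebpa (-0.78 ± 0.14) fell. These are among the brightest genes of the arrays, and with quantile normalization Alb was higher (0.41, adjusted p = 0.0047). By zone, of pericentral genes 1 of 15 measured members were higher and 5 lower, with a median of -0.25, and of periportal genes 1 of 15 measured members were higher and 11 lower, with a median of -0.99. Glutamine synthetase, Glul (-0.09 ± 0.17, adjusted p = 0.9), the pericentral landmark, did not pass, while the aminotransferase Oat (-1.52 ± 0.22) fell and the ammonium transporter Rhbg (0.95 ± 0.11) rose. The periportal P450 Cyp2f2 (-1.06 ± 0.16) and histidine ammonia-lyase, Hal (-1.49 ± 0.26, adjusted p = 0.0021), fell. The pericentral median was -0.41 without control array 1 and -0.62 without CDAHFD array 1, and whether the zones differed from each other was not tested. 5 of the identity genes were lower with quantile normalization. 3 of the pericentral genes were lower with eBayes without its trend and robust settings or all 12 arrays. Lower identity genes numbered 8 without control array 1 and 6 without CDAHFD array 2. Lower pericentral genes numbered 3 without control array 2 and 2 without CDAHFD array 2. The threshold was missed by Hnf4a, Ttr and Ahsg with quantile normalization (adjusted p = 0.088 to 0.53). Single arrays carried the call, which was lost for Ttr without control array 1 and CDAHFD array 2 (adjusted p = 0.086 to 0.091) and Hnf4a without CDAHFD array 2 (adjusted p = 0.098).

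Drug metabolism was the hepatocyte function with the lowest median. Of drug-metabolising P450 genes 1 of 31 measured members were higher and 25 lower, with a median of -1.50, and of conjugating enzymes and carboxylesterases 4 of 35 measured members were higher and 23 lower, with a median of -0.84, against 15.1% lower of all genes. Cyp3a11, an inducible enzyme of xenobiotic oxidation, was at 5.30 and 5.17 on the control arrays and 3.56 and 3.10 on the CDAHFD arrays, a difference of -1.97 ± 0.18, adjusted p = 3.8e-05. Cyp2c29 was at 3.92 and 3.99 on the control arrays and 1.97 and 1.84 on the CDAHFD arrays, a difference of -2.11 ± 0.14, adjusted p = 6e-06. For both, each CDAHFD array was below each control by over 1 log2 unit. The ethanol-oxidising Cyp2e1 (-0.71 ± 0.15) and the fatty acid hydroxylase Cyp4a12b (-2.69 ± 0.20) fell too, whereas Cyp1a2 (-0.24 ± 0.18, adjusted p = 0.48) did not pass. Among conjugating enzymes the glucuronosyltransferase Ugt2b1 (-1.94 ± 0.15), the carboxylesterase Ces1e (-2.68 ± 0.29) and the glutathione transferase Gstp1 (-1.17 ± 0.11) fell. P450, urinary protein, globin, serum amyloid and histocompatibility genes have near-identical relatives, whose signals on 1 probe cannot be told apart. In other settings the call ended for Cyp2e1 with quantile normalization (adjusted p = 0.75). With single arrays left out, significance was lost for Cyp2e1 without control array 1 and CDAHFD array 2 (adjusted p = 0.058 to 0.063).

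Of male-biased, growth hormone-dependent genes 0 of 25 measured members were higher and 21 lower, with a median of -1.25. For 1 of the 21, another probe of the gene was called higher. The growth hormone receptor Ghr was at 3.15 and 2.96 on the control arrays and 1.93 and 1.88 on the CDAHFD arrays, a difference of -1.21 ± 0.11, adjusted p = 4.2e-05. Both CDAHFD arrays were below both controls. Its target, the growth factor Igf1 (-1.12 ± 0.20), the major urinary proteins Mup3 (-1.28 ± 0.13) and Mup1 (-0.53 ± 0.15), and Susd4 (-2.02 ± 0.17) were lower. Of female-biased genes 6 of 10 measured members were higher and 1 lower, with a median of 1.28 (0.90 at bounds), among 21 listed: the flavin monooxygenase Fmo2 (1.70 ± 0.45) rose and Cyp3a16 (-2.59 ± 0.20, adjusted p = 1.8e-05) fell. 1 of the female-biased genes was higher with a median of 0.26 with normexp background correction. Higher female-biased genes numbered 2 without control array 1 or CDAHFD array 1 and 3 without control array 2. Other settings ended the call for Fmo2 with normexp background correction (adjusted p = 0.058). With quantile normalization the sign of Mup1 turned (0.13, adjusted p = 0.26). With 1 array left out, the call ended for Mup1 without control array 1 and CDAHFD arrays 1 and 2 (adjusted p = 0.095 to 0.18) and Fmo2 without control arrays 1 and 2 and CDAHFD array 1 (adjusted p = 0.055 to 0.083).

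Bile acid genes moved both ways within synthesis and within export. Of these genes 4 of 23 measured members were higher and 8 lower, with a median of -0.44. The uptake carrier Slc10a1 was at 6.23 and 6.22 on the control arrays and 5.18 and 5.18 on the CDAHFD arrays, a difference of -1.11 ± 0.14, adjusted p = 0.0003. The canalicular export pump Abcb11 (-1.08 ± 0.14, adjusted p = 0.00033) and the hydroxylase of the alternative pathway Cyp7b1 (-2.38 ± 0.17, adjusted p = 8.1e-06) fell with it. The arrays of each diet agreed closely for Slc10a1. The rate-limiting enzyme of bile acid synthesis, Cyp7a1 (0.16 ± 0.35, adjusted p = 0.64), did not pass. The basolateral exporters Slc51b (at least 6.42-fold higher, adjusted p = 0.00032) and Abcc4 (1.45 ± 0.28, adjusted p = 0.0023) rose, as did the oxysterol hydroxylase Cyp39a1 (1.48 ± 0.22, adjusted p = 0.00051).

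Amino acid breakdown and respiration genes had many lower members and none higher in this fit. Of urea cycle and amino acid breakdown genes 0 of 28 measured members were higher and 20 lower, with a median of -0.82, and of respiratory chain, ATP synthase and TCA cycle genes 0 of 35 measured members were higher and 21 lower, with a median of -0.52. The tryptophan pathway enzymes Haao (-1.63 ± 0.17, adjusted p = 8.8e-05) and Afmid (-2.26 ± 0.43, adjusted p = 0.0039) fell, as did the ornithine transcarbamylase Otc (-1.17 ± 0.10) and the fumarase Fh1 (-1.33 ± 0.19), the succinate dehydrogenase subunit Sdhb (-1.07 ± 0.16) and the ATP synthase subunit Atp5o (-1.28 ± 0.18). Atp5b (0.07 ± 0.41, adjusted p = 0.82), another ATP synthase subunit, did not pass and its controls were far apart, at 5.13 and 3.49. Of glucose genes 11 of 32 measured members were higher and 5 lower, with a median of 0.01. G6pc, the phosphatase that releases glucose, was at 3.30 and 3.81 on the control arrays and 1.63 and 1.36 on the CDAHFD arrays, a difference of -2.12 ± 0.39, adjusted p = 0.0031, whereas the gluconeogenic Pck1 (0.04 ± 0.13, adjusted p = 0.55) did not pass. The pyruvate kinase of non-hepatic and dividing cells, Pkm, was at -2.64 and -2.36 on the control arrays and 0.02 and 0.17 on the CDAHFD arrays, a difference of 2.54 ± 0.15, adjusted p = 2.9e-06. Pkm was high and G6pc low on both CDAHFD arrays. The hexokinases Hk3 (2.65 ± 0.27) and Hk2 (2.40 ± 0.29, above background on 1 of the 2 control arrays) and the pentose phosphate enzyme G6pdx (2.32 ± 0.24) also rose. With quantile normalization 1 of the respiration genes was higher and 8 lower, with a median of -0.13. In that setting 14 of the urea cycle and amino acid breakdown genes were lower, with a median of -0.46. There, 2 of the glycolysis, gluconeogenesis and glycogen genes were lower. 8 of the glycolysis, gluconeogenesis and glycogen genes were lower with median centring or the percentile over all probes. Lower respiration genes numbered 11 without control array 1 and 9 without CDAHFD array 2.

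**Figure D2:**
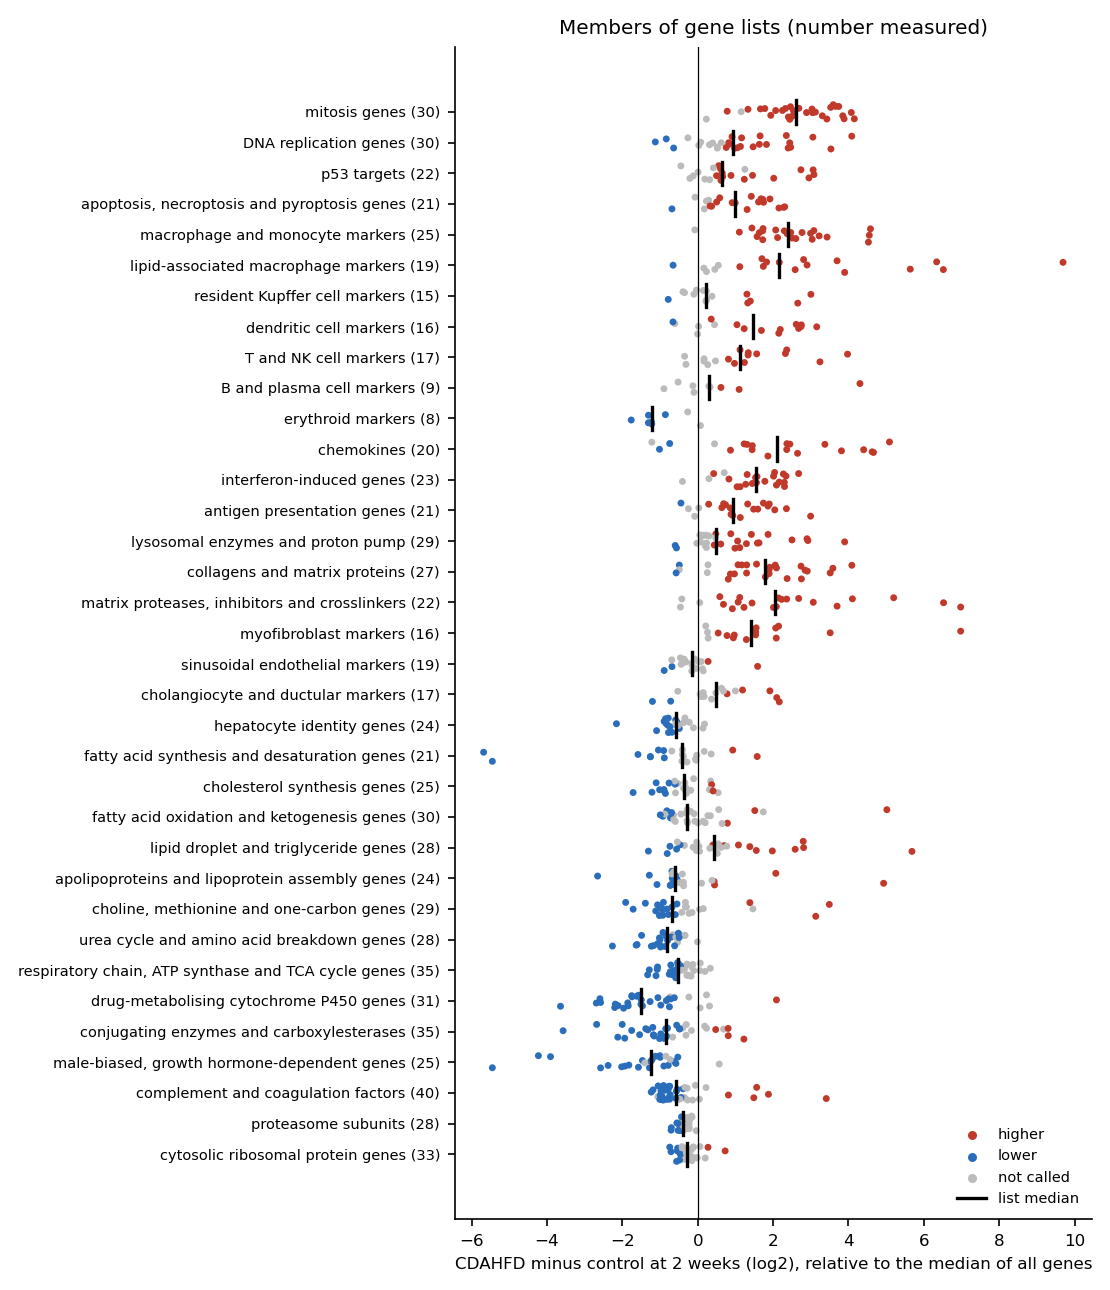
Difference of every measured member (points, CDAHFD minus control at 2 weeks, log2, relative to the median of all genes) of 35 gene lists, coloured by call, with the list median as a bar. Medians run from 2.61 for mitosis genes to -1.50 for P450 genes with 25 of 31 points of the P450 list below 0 and called.

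Macrophage and monocyte markers were higher almost throughout: 24 of 25 measured members were higher and 0 lower, with a median of 2.40, against 24.4% higher of all genes. The lysosomal glycoprotein Cd68 was at -1.37 and -0.97 on the control arrays and 1.82 and 2.04 on the CDAHFD arrays, a difference of 3.04 ± 0.18, adjusted p = 2.9e-06. Itgax, the CD11c integrin of dendritic cells and recruited macrophages, was at -5.83 and -5.52 on the control arrays and -0.09 and 0.14 on the CDAHFD arrays, a difference of 5.64 ± 0.21, adjusted p = 5.5e-07. Both were high on both CDAHFD arrays with no overlap. The F4/80 antigen Adgre1 (1.57 ± 0.36), the growth factor receptor Csf1r (1.1 ± 0.19), the galectin Lgals3 (4.58 ± 0.28), the fractalkine receptor Cx3cr1 (4.53 ± 0.20, above background on 1 of the 2 control arrays) and the monocyte chemokine receptor Ccr2 (at least 8.89-fold higher) rose. Adgre1 was at 0.97 without control array 1 and at 2.19 without control array 2. The brightest probe of Itgam, CD11b, did not pass (-0.08 ± 0.27, adjusted p = 0.97), while its other probe was at 2.16. Of lipid-associated macrophage markers 14 of 19 measured members were higher and 1 lower, with a median of 2.16. Trem2, the lipid receptor of these cells, was at -4.80 and -4.97 on the control arrays and 1.52 and 1.51 on the CDAHFD arrays, a difference of 6.34 ± 0.22, adjusted p = 4.2e-07. Its CDAHFD arrays were nearly equal and far above the controls. Resident Kupffer cell markers had 5 higher (33.3%) and 1 lower of 15, with a median of 0.23 that was -0.017 without control array 1 and 0.65 without control array 2. The macrophage and Kupffer lists were not tested against each other. The Kupffer lectin Clec4f (0.23 ± 0.19, adjusted p = 0.25), the complement receptor Vsig4 (0.38 ± 0.22, adjusted p = 0.14) and the phosphatidylserine receptor Timd4 (0.15 ± 0.43, adjusted p = 0.72) did not pass. The scavenger receptor Marco was at -0.95 and -0.32 on the control arrays and 2.52 and 2.34 on the CDAHFD arrays, a difference of 3.0 ± 0.45, adjusted p = 0.00087, and Fabp7 (2.65 ± 0.19) and Cd5l (1.33 ± 0.26) rose as well.

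Other leukocytes were less uniform. Of dendritic cell markers 11 of 16 measured members were higher and 1 lower, with a median of 1.46 (1.08 at bounds), among 19 listed: the cross-presenting cell lectin Clec9a (2.68 ± 0.23), the homing receptor Ccr7 (2.75 ± 0.24) and the factor Batf3 (2.15 ± 0.18) rose, and Cd209a (at least 2.18-fold higher) and Flt3 (at least 3.07-fold higher) passed background on CDAHFD. Of T and NK cell markers 11 of 17 measured members were higher and 0 lower, with a median of 1.12 (0.98 at bounds), among 28 listed. The cytotoxic granzyme Gzma (2.33 ± 0.36), the T cell receptor chain Cd3d (1.56 ± 0.29), the lectin-like receptor Klrd1 of NK cells (at least 6.01-fold higher) and Il7r, the receptor for interleukin 7 (at least 8.32-fold higher), rose, whereas the chains Cd3e (-0.31 ± 0.20, adjusted p = 0.34) and Cd3g (0.47 ± 0.30, adjusted p = 0.19) did not pass. Of B and plasma cell markers 3 of 9 measured members were higher and 0 lower, with a median of 0.29. CD20, Ms4a1 (0.33 ± 0.29, adjusted p = 0.32), did not pass, and the adaptor Blnk (4.30 ± 0.28, adjusted p = 6.4e-06), also expressed in macrophages, rose. With normexp the B and plasma cell list turned, with 1 higher, 3 lower and a median of -0.18, and with no filter it had 3 higher and 3 lower, with a median of -0.24. Of neutrophil markers 6 of 10 measured members were higher and 1 lower, with a median of 1.18 (0.25 at bounds). The alarmins S100a8 (2.60 ± 0.17) and S100a9 (2.55 ± 0.17) rose, the granulocyte receptor Csf3r (-0.44 ± 0.15, adjusted p = 0.079) and Ly6g (0.25 ± 0.21, adjusted p = 0.26) did not pass, and the granule peptide Camp was at -3.09 and -2.87 on the control arrays and -5.77 and -6.00 on the CDAHFD arrays, a difference of -2.97 ± 0.23, adjusted p = 1.4e-05. Camp was lower on both CDAHFD arrays, against the alarmins. For 1 called dendritic cell marker another probe of the gene was called in the opposite direction. 8 of the dendritic markers were higher with a median of 0.51, 5 of the T and NK markers were higher with a median of 0.32 and 3 of the neutrophil markers were higher with a median of -0.11 with normexp background correction. Among markers above background on all 11 arrays, 6 of 11 dendritic ones were higher (median 0.50). The same held for 6 of 11 T and NK markers (median 1.03) and 3 of 7 neutrophil markers (median 0.30). With other settings significance was lost for Flt3 and Cd3d with normexp background correction (adjusted p = 0.23 to 0.27). With normexp background correction the difference of Cd209a fell to 0.12 (adjusted p = 0.91), and its sign turned only before the median shift. With 1 array left out, the call ended for Cd209a without control array 1 and CDAHFD array 2 (adjusted p = 0.12 to 0.14).

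Red cell transcripts fell. Of erythroid markers 0 of 8 measured members were higher and 6 lower, with a median of -1.22. The alpha globin Hba-a1 was at 2.96 and 3.02 on the control arrays and 1.68 and 1.98 on the CDAHFD arrays, a difference of -1.22 ± 0.18, adjusted p = 0.00067. The erythroid haem synthesis enzyme Alas2 was at 2.51 and 2.25 on the control arrays and 0.63 and 0.72 on the CDAHFD arrays, a difference of -1.77 ± 0.14, adjusted p = 1.7e-05. Both were low on both CDAHFD arrays. The beta globin Hbb-b1 (-1.23 ± 0.20) was lower too, and the amount of blood in the samples was not tested. Of platelet markers 3 of 5 measured members were higher and 0 lower. The chemokine Pf4 (2.08 ± 0.16) and Treml1 (at least 4.72-fold higher) rose and Ppbp (-0.07 ± 0.38, above background on 1 of the 2 control arrays, adjusted p = 0.99) did not pass.

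Chemokines rose in most members: 16 of 20 measured members were higher and 2 lower, with a median of 2.11. Ccl2, which draws monocytes, was at -5.12 and -4.29 on the control arrays and -0.35 and -0.13 on the CDAHFD arrays, a difference of 4.40 ± 0.28, adjusted p = 5.4e-06. Both CDAHFD arrays lay far above both controls. The T cell attractants Cxcl10 (2.65 ± 0.26) and Ccl5 (2.36 ± 0.37) and the neutrophil attractant Cxcl1 (2.37 ± 0.31) rose. Ccl3 (at least 6.11-fold higher), Ccl4 (at least 15-fold higher), Ccl7 (at least 7.72-fold higher) and Cxcl5 (at least 6.5-fold higher) rose from below background. Lower were Ccl25 (-1.01 ± 0.18), best known from thymus and small intestine, and Cxcl12 (-0.74 ± 0.14), a chemokine of stromal cells. Of cytokines and their receptors 12 of 18 measured members were higher and 1 lower, with a median of 0.93 (0.78 at bounds). Tnf (at least 1.65-fold higher) and the antagonist Il1rn (at least 2.35-fold higher) passed background on CDAHFD. Interleukin 1 beta, Il1b (0.89 ± 0.22), the alarmin Il33 (1.47 ± 0.22), the macrophage growth factor Csf1 (1.58 ± 0.20) and Tgfb1 (1.38 ± 0.16, adjusted p = 0.0001) rose. Of the 20 chemokines 5, and of the 18 cytokine genes 5, were above background on the CDAHFD arrays only, which the filter favours. Among members above background on all 11 arrays, 11 of 14 chemokines (median 1.71) and 8 of 13 cytokine genes (median 0.94) were higher. 15 of the chemokines were higher with a median of 1.09 and 6 of the cytokine genes were higher with a median of 0.18 with normexp background correction. The threshold was missed by Tnf, Il1rn and Il1b with normexp background correction (adjusted p = 0.82 to 0.92). Single arrays carried the call, which was lost for Il1b without CDAHFD array 2 (adjusted p = 0.058).

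Interferon-induced genes rose together: 20 of 23 measured members were higher and 0 lower, with a median of 1.56. Their promoters are shown because the members moved together and share a known element. In the RefSeq promoter table (GRCm38.p6), 17 of the 25 listed genes had 20 promoters of 300 bases around the start. The core of the interferon-stimulated response element, GAAA repeated after any 2 bases, searched on both strands with overlapping matches allowed, stood in 9 of the 20 (45%) and in 1131 of the 32851 promoters of the table (3.44%). A match is a description and not a binding site. The 200 bases before the start are printed 5′ to 3′ on the strand of the gene, with matches on either strand in capitals, for Isg15 (chr4:156200819-156201018 on the minus strand), Ifit1 (chr19:34640689-34640888 on the plus strand), Ifit3 (chr19:34583329-34583528 on the plus strand) and Oas1a (chr5:120907526-120907725 on the minus strand).
Isg15: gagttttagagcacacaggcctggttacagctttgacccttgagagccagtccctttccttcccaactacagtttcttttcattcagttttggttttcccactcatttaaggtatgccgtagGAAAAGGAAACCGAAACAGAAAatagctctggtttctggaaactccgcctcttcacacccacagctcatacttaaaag
Ifit1: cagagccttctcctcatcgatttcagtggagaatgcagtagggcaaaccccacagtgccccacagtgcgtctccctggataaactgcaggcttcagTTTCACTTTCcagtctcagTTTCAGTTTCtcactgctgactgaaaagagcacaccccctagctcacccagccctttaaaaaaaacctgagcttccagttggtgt
Ifit3: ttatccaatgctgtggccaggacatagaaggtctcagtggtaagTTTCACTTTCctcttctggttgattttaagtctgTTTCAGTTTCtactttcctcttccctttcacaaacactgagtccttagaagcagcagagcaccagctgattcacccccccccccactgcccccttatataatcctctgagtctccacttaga
Oas1a: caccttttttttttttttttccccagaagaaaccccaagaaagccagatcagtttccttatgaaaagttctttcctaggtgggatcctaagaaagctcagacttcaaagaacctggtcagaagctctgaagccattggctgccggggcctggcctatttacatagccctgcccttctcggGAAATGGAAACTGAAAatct
The first base of the match farthest from the start lies 78, 104, 156 and 20 bases before it in Isg15, Ifit1, Ifit3 and Oas1a.

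Among these genes, Oas1a, an oligoadenylate synthetase that senses double-stranded RNA, was at -1.53 and -0.66 on the control arrays and 1.31 and 1.23 on the CDAHFD arrays, a difference of 2.30 ± 0.23, adjusted p = 5.9e-05. Isg15, a ubiquitin-like modifier, was at 0.46 and 0.74 on the control arrays and 1.84 and 1.73 on the CDAHFD arrays, a difference of 1.13 ± 0.27, adjusted p = 0.0071. CDAHFD arrays were above control arrays for both, with the 2 Oas1a controls further apart. Ifit1 (1.27 ± 0.22) and Ifit3 (2.09 ± 0.23), which bind foreign RNA, Oas2 (2.04 ± 0.22), Oasl2 (2.27 ± 0.25), the deISGylase Usp18 (2.68 ± 0.32) and the factor Irf7 (1.04 ± 0.27) rose. Of antigen presentation genes 17 of 21 measured members were higher and 1 lower, with a median of 0.93. The class II chain H2-Ab1 was at 0.45 and 1.14 on the control arrays and 2.41 and 2.79 on the CDAHFD arrays, a difference of 1.74 ± 0.31, adjusted p = 0.0015, and H2-Aa (2.35 ± 0.43), the invariant chain Cd74 (1.90 ± 0.25) and cathepsin S, Ctss (2.99 ± 0.26, adjusted p = 2.4e-05), rose with it. Class II genes lay higher on both CDAHFD arrays. The class I heavy chain H2-K1 (-0.08 ± 0.11, adjusted p = 0.91) did not pass, and it was higher with quantile normalization (0.53) and with the mean of its probes (0.45). The co-stimulators Cd80 (1.48 ± 0.18) and Cd86 (1.32 ± 0.18) and the immunoproteasome subunit Psmb8 (1.13 ± 0.14) rose. Of lysosomal enzymes and proton pump genes 16 of 29 measured members were higher and 2 lower, with a median of 0.48: cathepsin D, Ctsd (1.12 ± 0.10), cathepsin K, Ctsk (2.92 ± 0.21, adjusted p = 6.9e-06), and the hexosaminidase Hexa (1.58 ± 0.15) rose, and cathepsins B and L, Ctsb (0.23 ± 0.11, adjusted p = 0.064) and Ctsl (0.16 ± 0.13, adjusted p = 0.19), did not pass. With single arrays left out, significance was lost for Isg15 without control array 1 (adjusted p = 0.054) and Irf7 without CDAHFD array 2 (adjusted p = 0.068).

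Mitosis genes were higher in nearly all members. Of mitosis genes 28 of 30 measured members were higher and 0 lower, with a median of 2.61 (2.39 at bounds), against 24.4% higher of all genes. Of 34 listed genes 30 were measured, and 12 of the 30 were above background on the CDAHFD arrays only, which a filter of this kind favours. Of the 15 above background on all 11 arrays, 14 were higher, with a median of 2.73. 19 of the mitosis genes were higher with a median of 1.01 with normexp background correction. Many genes of the G2 and M phases share a CCAAT box and a cell cycle genes homology region (CHR) near their start. Of the 34 genes 29 had 31 promoters in that table. CCAAT stood in 24 of the 31 (77.4%) and in 12289 of all 32851 promoters (37.4%). The CHR letters TTTGAA stood in 24 of the 31 (77.4%) and in 5878 of all promoters (17.9%). Both strands were searched, and a match is again only a description. The 200 bases before the start are printed 5′ to 3′ on the strand of the gene, with both motifs in capitals on either strand, for Mki67 (chr7:135716380-135716579 on the minus strand), Cdk1 (chr10:69352913-69353112 on the minus strand), Ccnb2 (chr9:70421555-70421754 on the minus strand) and Cdc20 (chr4:118437344-118437543 on the minus strand).
Mki67: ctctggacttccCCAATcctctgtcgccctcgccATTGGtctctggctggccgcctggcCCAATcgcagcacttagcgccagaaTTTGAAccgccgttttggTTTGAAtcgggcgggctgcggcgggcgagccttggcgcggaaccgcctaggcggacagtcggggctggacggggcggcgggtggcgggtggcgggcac
Cdk1: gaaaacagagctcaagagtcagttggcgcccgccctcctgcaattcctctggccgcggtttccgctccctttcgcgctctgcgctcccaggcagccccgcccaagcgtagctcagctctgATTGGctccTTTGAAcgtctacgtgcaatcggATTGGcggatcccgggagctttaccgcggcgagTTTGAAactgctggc
Ccnb2: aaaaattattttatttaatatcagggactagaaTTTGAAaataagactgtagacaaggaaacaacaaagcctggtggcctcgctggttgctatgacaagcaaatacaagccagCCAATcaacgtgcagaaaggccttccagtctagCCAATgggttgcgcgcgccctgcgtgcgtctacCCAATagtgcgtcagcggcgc
Cdc20: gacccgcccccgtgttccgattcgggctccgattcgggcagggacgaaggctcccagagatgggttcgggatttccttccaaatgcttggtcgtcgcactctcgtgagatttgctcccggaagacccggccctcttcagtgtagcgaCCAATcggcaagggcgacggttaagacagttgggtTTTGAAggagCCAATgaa
Each of the 4 holds at least 2 CCAAT boxes, on either strand, and at least 1 CHR match.

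The proliferation antigen Mki67 was at -4.78 and -4.57 on the control arrays and -1.54 and -1.44 on the CDAHFD arrays, a difference of 3.12 ± 0.30, adjusted p = 4.1e-05. Cyclin B2, Ccnb2, was at -3.92 and -4.04 on the control arrays and -1.18 and -0.59 on the CDAHFD arrays, a difference of 3.03 ± 0.26, adjusted p = 2e-05. Cdc20, the activator of the anaphase-promoting complex, was at -4.83 and -4.89 on the control arrays and -1.40 and -1.01 on the CDAHFD arrays, a difference of 3.60 ± 0.50, adjusted p = 0.00047. All 3 were above background in controls and high on both CDAHFD arrays, with no overlap. Below background in controls were cyclin B1, Ccnb1 (at least 7.54-fold higher), the mitotic kinase Cdk1 (at least 3.31-fold higher) and the topoisomerase Top2a (at least 3.53-fold higher). Survivin, Birc5 (3.31 ± 0.33), the spindle midzone protein Prc1 (3.53 ± 0.34), the kinesin Cenpe (3.65 ± 0.35, above background on 1 of the 2 control arrays) and the kinase Plk1 (3.05 ± 0.39) rose, while the kinetochore protein Ndc80 (1.15 ± 0.47, adjusted p = 0.064) and the hyaluronan receptor Hmmr (0.23 ± 0.16, adjusted p = 0.17) were the members that did not pass. Which cells expressed these genes, and whether they divided, cannot be read from bulk RNA. With other settings significance was lost for Top2a with normexp background correction (adjusted p = 0.12).

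DNA replication genes were higher in most members but less evenly: 19 of 30 measured members were higher and 3 lower, with a median of 0.94 (0.92 at bounds). The helicase subunit Mcm5 was at -5.35 and -4.88 on the control arrays and -1.28 and -1.75 on the CDAHFD arrays, a difference of 3.53 ± 0.39, adjusted p = 0.00011. Both CDAHFD arrays were above both controls. Mcm2 (2.44 ± 0.39), the methylation reader Uhrf1 (4.09 ± 0.45, above background on 1 of the 2 control arrays), the chromatin assembly factor Chaf1a (2.47 ± 0.31, above background on 1 of the 2 control arrays), the licensing factor Cdt1 (1.65 ± 0.22) and the clamp Pcna (0.91 ± 0.15) rose. Among the lower were Mcm10 (-1.13 ± 0.19), an origin-firing factor, and thymidine kinase, Tk1 (-0.83 ± 0.14), named after their values were seen. Of G1 cyclins, E2F factors and CDK inhibitors 9 of 23 measured members were higher and 0 lower, with a median of 0.51 (0.47 at bounds). Cyclin D1, Ccnd1, which carries growth signals into the cell cycle, was at -0.90 and -0.79 on the control arrays and 2.35 and 1.87 on the CDAHFD arrays, a difference of 2.89 ± 0.33, adjusted p = 0.00016. The CDK inhibitor and p53 target Cdkn1a was at -3.63 and -4.25 on the control arrays and -1.08 and -1.20 on the CDAHFD arrays, a difference of 2.74 ± 0.22, adjusted p = 1.3e-05. A cyclin that drives the cycle and an inhibitor that stops it were thus both high on both CDAHFD arrays. Cyclin E1, Ccne1 (2.40 ± 0.36), and the pocket protein Rbl1 (1.82 ± 0.26) rose. Higher DNA replication genes numbered 12 without CDAHFD array 1.

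Of p53 targets 14 of 22 measured members were higher and 0 lower, with a median of 0.63 (0.61 at bounds). The ligase of p53, Mdm2 (0.56 ± 0.13), cyclin G1, Ccng1 (0.88 ± 0.14), and the pore former Bax (0.66 ± 0.12) rose by small steps, and the Akt inhibitor Phlda3 (3.06 ± 0.23, adjusted p = 9.7e-06), the BH3 protein Pmaip1 (3.08 ± 0.23, above background on 1 of the 2 control arrays), the cytokine Gdf15 (1.45 ± 0.30) and the death receptor Tnfrsf10b (at least 5.56-fold higher) by larger ones. Of apoptosis, necroptosis and pyroptosis genes 16 of 21 measured members were higher and 1 lower, with a median of 0.99 (0.74 at bounds). The inflammatory caspases Casp1 (1.68 ± 0.22) and Casp4 (1.61 ± 0.17), the inflammasome adaptor Pycard (1.92 ± 0.15) and the pore former Gsdme (2.31 ± 0.34) rose, as did the necroptosis pair Ripk3 (2.15 ± 0.30) and Mlkl (1.73 ± 0.23). The initiator Casp8 (0.18 ± 0.21, adjusted p = 0.41) did not pass. Single arrays carried the call, which was lost for Mdm2 without CDAHFD array 1 (adjusted p = 0.0503).

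**Figure D3:**
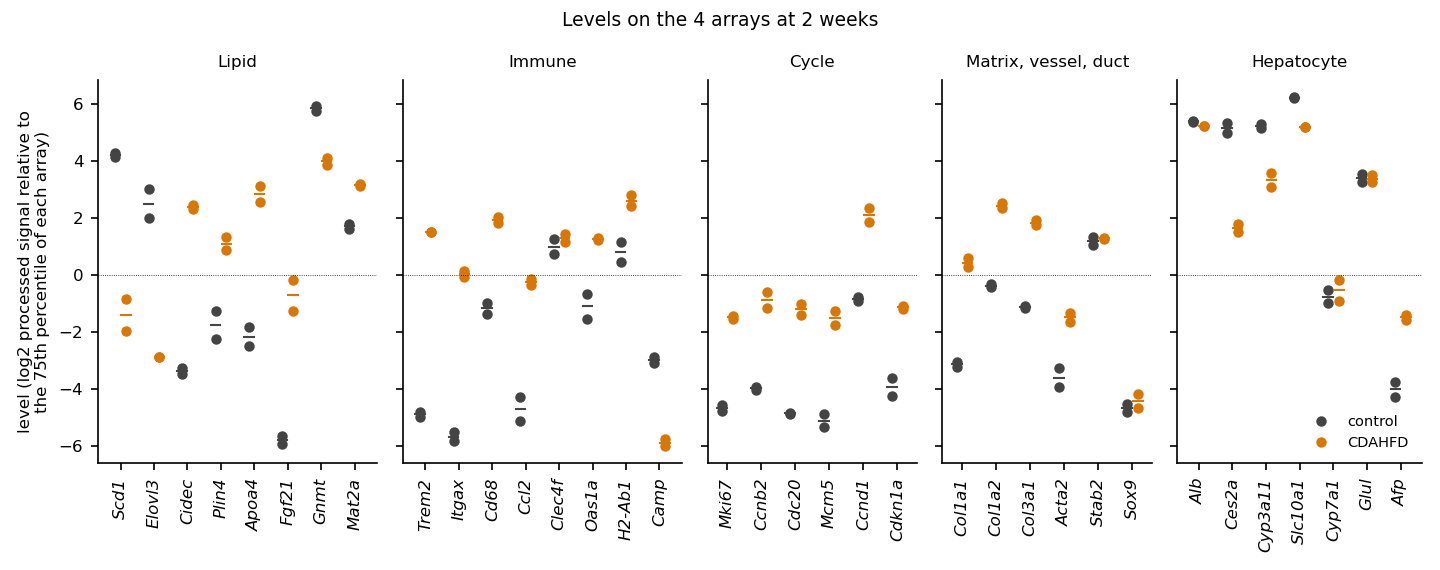
Level of 35 genes on each of the 4 arrays at 2 weeks (points, log2 processed signal relative to the array's 75th percentile), with the mean of each diet as a bar, in 5 groups of genes. Control and CDAHFD points are far apart for Trem2, Cidec and Col1a1, and lie together for Clec4f, Stab2, Cyp7a1 and Glul.

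Matrix genes were already higher at 2 weeks. Of collagens and matrix proteins 22 of 27 measured members were higher and 2 lower, with a median of 1.80 (1.56 at bounds). Col1a1, a chain of type I collagen, the main fibre of scar, was at -3.06 and -3.23 on the control arrays and 0.28 and 0.59 on the CDAHFD arrays, a difference of 3.51 ± 0.18, adjusted p = 1.8e-06. Col3a1, type III collagen, was at -1.1 and -1.16 on the control arrays and 1.75 and 1.93 on the CDAHFD arrays, a difference of 2.91 ± 0.19, adjusted p = 4.8e-06. Control and CDAHFD arrays of both did not overlap, and replicates of a diet lay within 0.4 of each other. Col1a2 (2.75 ± 0.15, adjusted p = 2.7e-06), type IV collagen Col4a1 (1.80 ± 0.16), type VI collagen Col6a3 (2.85 ± 0.18) and lumican, Lum (2.74 ± 0.20), rose, and thrombospondins Thbs1 (at least 7.92-fold higher) and Thbs2 (at least 3.81-fold higher) rose from below background. Lower were Ecm1 (-0.57 ± 0.15), a matrix protein that hepatocytes make, and fibronectin, Fn1 (-0.49 ± 0.15). The difference of Col1a1 was 2.05 at 1 week and 4.01 at 6 weeks. No histology was analysed here, so whether these livers held scar is unknown, and their RNA does not mark a stage free of matrix change. 5 of the matrix genes were lower with a median of 1.05 with normexp background correction. In other settings the call ended for Ecm1 with quantile normalization (adjusted p = 0.12) and Fn1 with quantile normalization, no filter and eBayes without its trend and robust settings (adjusted p = 0.0516 to 0.9). The call of Fn1 was lost in 8 of the 11 fits that each left out 1 array (adjusted p = 0.065 to 0.26). With single arrays left out, significance was lost for Ecm1 without control array 1 and CDAHFD arrays 1 and 2 (adjusted p = 0.075 to 0.13).

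Of matrix proteases, inhibitors and crosslinkers 19 of 22 measured members were higher and 0 lower, with a median of 2.05 (1.33 at bounds). Of the 12 above background on all 11 arrays 10 were higher, with a lower median of 1.145. Beside Timp1, the collagenase Mmp13 (at least 4.13-fold higher), the urokinase receptor Plaur (at least 23.3-fold higher), the gelatinase Mmp2 (2.36 ± 0.24), the macrophage elastase Mmp12 (3.70 ± 0.65, above background on 1 of the 2 control arrays, adjusted p = 0.0018) and the crosslinker Loxl2 (2.08 ± 0.13) rose. Of myofibroblast markers 13 of 16 measured members were higher and 0 lower, with a median of 1.41 (1.39 at bounds), and of quiescent stellate cell markers 10 of 16 measured members were higher and 1 lower, with a median of 0.56. Smooth muscle actin, Acta2, was at -3.28 and -3.95 on the control arrays and -1.64 and -1.32 on the CDAHFD arrays, a difference of 2.07 ± 0.29, adjusted p = 0.00037. Both CDAHFD arrays were above both controls. Tagln (1.54 ± 0.17), another contractile protein, and the PDGF receptors Pdgfra (1.54 ± 0.17) and Pdgfrb (1.16 ± 0.19) rose, and the matricellular protein Postn (0.28 ± 0.28, adjusted p = 0.36) did not pass. The vitamin A esterase Lrat (1.57 ± 0.17), a marker of quiescent stellate cells, and cytoglobin, Cygb (1.63 ± 0.16), rose too, while Reln (0.03 ± 0.26, adjusted p = 0.81) did not pass. Of TGF-beta genes 14 of 24 measured members were higher and 1 lower, with a median of 0.65. The receptor Tgfbr1 (0.60 ± 0.13), the ligand Tgfb2 (1.47 ± 0.26) and the targets Ccn2 (1.36 ± 0.26) and Tgfbi (1.51 ± 0.11) rose, and the inhibitor Smad7 (-0.67 ± 0.31, adjusted p = 0.15) did not pass. 15 of the matrix turnover genes were higher with a median of 0.93 and 8 of the TGF-beta genes were higher with normexp background correction. 5 of the TGF-beta genes were lower with median centring or the percentile over all probes. Other settings ended the call for Tgfb2 with normexp background correction (adjusted p = 0.14) and Ccn2 with all 12 arrays (adjusted p = 0.1).

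Cytoskeleton genes rose in 23 of 32 members with 1 lower and a median of 1.19. The calcium-binding proteins Anxa2 (3.60 ± 0.22, adjusted p = 4.3e-06) and S100a4 (3.65 ± 0.16, adjusted p = 8.4e-07), vimentin, Vim (2.26 ± 0.26, adjusted p = 0.00011), the actin crosslinker Flna (2.10 ± 0.11) and the hepatocyte keratin Krt8 (1.70 ± 0.25) rose. Beta actin, Actb (-0.22 ± 0.14, adjusted p = 0.4), did not pass, and with quantile normalization it was higher (0.53). The member that was lower, tropomyosin Tpm1 (-1.28 ± 0.20), was opposed by its other probes. With the mean of the probes the sign of Tpm1 turned (0.89, adjusted p = 0.0043).

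Few sinusoidal endothelial markers were called, and vascular ones went both ways. Of sinusoidal endothelial markers 2 of 19 measured members were higher and 2 lower, with a median of -0.15, and of vascular endothelial and capillarization markers 5 of 14 measured members were higher and 2 lower, with a median of 0.02. The scavenger receptor Stab2 was at 1.03 and 1.35 on the control arrays and 1.30 and 1.26 on the CDAHFD arrays, a difference of 0.03 ± 0.13, adjusted p = 0.62. Its control and CDAHFD levels overlapped. The sinusoidal lectin Clec4g (-0.36 ± 0.15, adjusted p = 0.14) did not pass, the hyaluronan receptor Lyve1 (1.59 ± 0.28) rose, and the nuclease Dnase1l3 (-0.89 ± 0.16) and the factor Gata4 (-0.68 ± 0.19) fell. Vascular von Willebrand factor, Vwf (0.08 ± 0.13, adjusted p = 0.42), did not pass. The adhesion molecules Vcam1 (3.0 ± 0.26, adjusted p = 2.7e-05) and Icam1 (2.26 ± 0.54, above background on 1 of the 2 control arrays), the fenestral diaphragm protein Plvap (0.90 ± 0.10) and the sialomucin Cd34 (2.12 ± 0.22, adjusted p = 6.1e-05) rose. Icam1 was at 1.34 without control array 1 and at 3.18 without control array 2. 8 of the sinusoidal endothelial markers were lower with median centring. 7 of the sinusoidal endothelial markers were lower with the percentile over all probes. 6 of the sinusoidal endothelial markers were lower and 6 of the vascular endothelial and capillarization markers were lower with normexp background correction. The threshold was missed by Icam1 with normexp background correction (adjusted p = 0.2). Single arrays carried the call, which was lost for Gata4 without control array 1 and CDAHFD arrays 1 and 2 (adjusted p = 0.087 to 0.18) and Icam1 without CDAHFD array 2 (adjusted p = 0.07).

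Ductular and fetal genes differed from each other in their medians. Of cholangiocyte and ductular markers 5 of 17 measured members were higher and 2 lower, with a median of 0.48 (0.37 at bounds). The keratin of bile ducts Krt19 (0.63 ± 0.45, adjusted p = 0.25), the adhesion molecule Epcam (0.06 ± 0.29, above background on 1 of the 2 control arrays, adjusted p = 0.76) and the factor Sox9 (0.17 ± 0.23, adjusted p = 0.45) did not pass, while the surface protein Cd24a (1.91 ± 0.42) and the keratin Krt23 (2.10 ± 0.26, adjusted p = 0.00021) rose and the anion exchanger Slc4a2 (-1.20 ± 0.19, adjusted p = 0.0011) fell. Of oncofetal liver genes 9 of 12 measured members were higher and 0 lower, with a median of 2.47, among 18 listed. The higher members include Vsig8, Ly6d and Sprr1a, which are also among the largest gains of these arrays given above. The lists were chosen with earlier results of these data known, so this count and median rest in part on such genes. Of the 12 members 3 were above background on the CDAHFD arrays only, which the filter favours. With no filter 9 of 18 were higher and 3 lower, with a median of 1.31. Of the 7 above background on all 11 arrays 5 were higher, with a median of 2.52. Whether a fetal programme returned was not tested. Alpha-fetoprotein, Afp, the albumin of fetal liver, was at -4.29 and -3.75 on the control arrays and -1.57 and -1.41 on the CDAHFD arrays, a difference of 2.47 ± 0.31, adjusted p = 0.0002. Both CDAHFD arrays were above both controls. The imprinted noncoding RNA H19 (at least 10.1-fold higher), the carbonyl reductase Cbr3 (5.43 ± 0.35, adjusted p = 6.5e-06) and the Golgi protein Golm1 (2.47 ± 0.24) rose, and glypican 3, Gpc3 (0.37 ± 0.34, above background on 1 of the 2 control arrays, adjusted p = 0.34), did not pass. 3 of the ductular markers were higher with median centring or the percentile over all probes. 2 of the ductular markers were higher and 5 lower with a median of -0.08 and 7 of the oncofetal genes were higher with a median of 1.58 with normexp background correction. Higher ductular markers numbered 3 without control array 1 or control array 2 or CDAHFD array 1 or CDAHFD array 2. In other settings the call ended for Cd24a and H19 with normexp background correction (adjusted p = 0.093 to 0.094).

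Growth factors rose while several of their hepatocyte receptors fell. Of growth factors and their receptors 16 of 30 measured members were higher and 5 lower, with a median of 0.53 (0.46 at bounds). Nrg1, a ligand of ErbB receptors, was at -5.17 and -5.19 on the control arrays and -0.65 and -0.54 on the CDAHFD arrays, a difference of 4.52 ± 0.29, adjusted p = 5.6e-06. The epidermal growth factor receptor Egfr, which hepatocytes express, was at 3.23 and 3.62 on the control arrays and 2.52 and 2.26 on the CDAHFD arrays, a difference of -1.1 ± 0.16, adjusted p = 0.00088. Nrg1 was thus higher and Egfr lower on both CDAHFD arrays. The Egfr ligands Areg (at least 3.04-fold higher) and Ereg (at least 2.19-fold higher) passed background on CDAHFD. The platelet-derived ligands Pdgfa (1.74 ± 0.20, adjusted p = 0.00011) and Pdgfb (2.06 ± 0.18, adjusted p = 2.2e-05) and the hepatocyte growth factor Hgf (0.65 ± 0.15) rose, and its receptor Met (-0.53 ± 0.23, adjusted p = 0.13) did not pass. The Fgf receptor Fgfr4 (-1.09 ± 0.14) and its co-receptor Klb (-1.30 ± 0.14), through which Fgf15 signals to hepatocytes, fell. Of YAP, Notch and Wnt target genes 10 of 24 measured members were higher and 3 lower, with a median of 0.13: the factor Tead1 (1.01 ± 0.17) and the Notch target Hey1 (1.74 ± 0.22) rose, the Wnt target Axin2 (-0.37 ± 0.26, adjusted p = 0.38) did not pass, and Notum (-0.61 ± 0.13) fell. 9 of the growth factor genes were higher and 4 of the YAP, Notch and Wnt genes were higher and 7 lower with normexp background correction. 7 of the YAP, Notch and Wnt genes were lower with median centring or the percentile over all probes. 6 of the YAP, Notch and Wnt genes were higher and 6 lower with quantile normalization. Higher YAP, Notch and Wnt genes numbered 4 without control array 1, 6 without CDAHFD array 1 and 5 without CDAHFD array 2. Other settings ended the call for Areg, Ereg and Hgf with normexp background correction (adjusted p = 0.12 to 0.96) and Notum with all 12 arrays (adjusted p = 0.88). With 1 array left out, the call ended for Notum without CDAHFD array 2 (adjusted p = 0.082).

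Stress genes moved both ways within each list. Of integrated stress and unfolded protein response genes 7 of 30 measured members were higher and 7 lower, with a median of -0.07. Atf3, a stress-induced factor, was at -6.77 and -6.44 on the control arrays and -1.39 and -0.84 on the CDAHFD arrays (at least 36.4-fold higher, adjusted p = 4.2e-06). Nupr1, a nuclear stress protein, was at -4.01 and -4.06 on the control arrays and -0.06 and 0.90 on the CDAHFD arrays, a difference of 4.39 ± 0.58, adjusted p = 0.00055. Both were high on both CDAHFD arrays. The serine synthesis enzyme Psat1 (4.59 ± 0.57, above background on 1 of the 2 control arrays, adjusted p = 0.00027) and the factor Ddit3 (0.86 ± 0.23) rose, the chaperone Hspa5 (-0.55 ± 0.16), the factor Atf4 (-0.49 ± 0.12) and the degradation protein Herpud1 (-0.94 ± 0.18) fell, and asparagine synthetase, Asns (0.75 ± 0.52, adjusted p = 0.25), did not pass. Of NRF2 antioxidant genes 10 of 30 measured members were higher and 8 lower, with a median of 0.09. The quinone reductase Nqo1 (2.07 ± 0.30), sulfiredoxin, Srxn1 (2.28 ± 0.22), and the peroxidase Gpx3 (2.40 ± 0.18) rose, the dismutase Sod1 (-0.92 ± 0.15) fell, and the glutathione synthesis subunit Gclc (-0.05 ± 0.21, adjusted p = 0.97) did not pass. Haem oxygenase, Hmox1, was at -1.16 and -1.0 on the control arrays and 1.14 and 1.18 on the CDAHFD arrays, a difference of 2.18 ± 0.25, adjusted p = 0.00012, high on both CDAHFD arrays. 12 of the integrated stress and unfolded protein response genes were lower with median centring. 3 of the integrated stress and unfolded protein response genes were lower and 4 of the NRF2 antioxidant genes were lower with quantile normalization. 11 of the integrated stress and unfolded protein response genes were lower with the percentile over all probes or only the 2-week arrays. Lower integrated stress and unfolded protein response genes numbered 2 without control array 1 or CDAHFD array 1 and 3 without CDAHFD array 2. Lower NRF2 antioxidant genes numbered 5 without control array 1 or control array 2, 3 without CDAHFD array 1 and 4 without CDAHFD array 2. Significance was lost for Hspa5 with quantile normalization, normexp background correction and eBayes without its trend and robust settings (adjusted p = 0.0548 to 0.67), Atf4 and Sod1 with quantile normalization (adjusted p = 0.0504 to 0.63) and Ddit3 with normexp background correction (adjusted p = 0.083). The call of Hspa5 was lost in 5 of the 11 fits that each left out 1 array (adjusted p = 0.0506 to 0.18). Leaving out 1 array ended the call for Ddit3 without control array 1 and CDAHFD array 2 (adjusted p = 0.071 to 0.1) and Atf4 without control array 1 and CDAHFD arrays 1 and 2 (adjusted p = 0.086 to 0.096).

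Plasma proteins of the liver divided by class. Of acute phase genes 10 of 26 measured members were higher and 5 lower, with a median of 0.25, and of complement and coagulation factors 5 of 40 measured members were higher and 24 lower, with a median of -0.57. Serum amyloids Saa1 (2.38 ± 0.26), Saa2 (1.50 ± 0.20) and Saa3 (3.54 ± 0.24, adjusted p = 6.5e-06), the orosomucoid Orm3 (3.90 ± 0.50, above background on 1 of the 2 control arrays, adjusted p = 0.0003) and the endotoxin co-receptor Cd14 (3.43 ± 0.33, adjusted p = 5.1e-05) rose, and the fibrinogen chain Fga (-1.11 ± 0.13, adjusted p = 0.00019) fell. Complement C3 (-0.74 ± 0.16), prothrombin, F2 (-0.73 ± 0.14), the lectin pathway protease Masp2 (-1.23 ± 0.13), prekallikrein, Klkb1 (-1.19 ± 0.12), and C8a (-1.0 ± 0.12) fell. The members of that list that macrophages express, the C5a receptor C5ar1 (at least 8.21-fold higher) and C1qc (1.49 ± 0.21), rose. 8 of the acute phase genes were lower with median centring. 16 of the acute phase genes were higher and 1 lower with quantile normalization. 9 of the acute phase genes were lower with the percentile over all probes. Lower acute phase genes numbered 3 without control array 1 or CDAHFD array 2. The threshold was missed by F2 with quantile normalization (adjusted p = 0.11). With quantile normalization the sign of C3 turned (0.02, adjusted p = 0.83). Single arrays carried the call, which was lost for C3 without control array 1 and CDAHFD array 2 (adjusted p = 0.065 to 0.069).

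Clock, iron, hypoxia and housekeeping genes gave small or mixed changes. Of circadian clock genes 2 of 16 measured members were higher and 4 lower, with a median of 0.02. The core activator Arntl was at -2.65 and -3.24 on the control arrays and -5.62 and -5.43 on the CDAHFD arrays, a difference of -2.64 ± 0.37, adjusted p = 0.00053, and its partner Clock (-1.06 ± 0.19) and the repressor Nr1d1 (-1.84 ± 0.44) were lower. Per2 (1.90 ± 0.36) and Per3 (at least 2.17-fold higher) were higher, and Per1 (0.37 ± 0.25, adjusted p = 0.21) did not pass. Arntl was low on both CDAHFD arrays, and the hour at which the livers were taken was not used here. Of iron genes 4 of 22 measured members were higher and 3 lower, with a median of 0.06: hepcidin, Hamp (0.37 ± 0.16, adjusted p = 0.056), and the transferrin receptor Tfrc (0.07 ± 0.31, adjusted p = 0.76) did not pass, and Hamp2 (-2.09 ± 0.29, adjusted p = 0.00056) fell. Of hypoxia-induced genes 6 of 20 measured members were higher and 5 lower, with a median of -0.09, with carbonic anhydrase Car9 (at least 3.21-fold higher) and adrenomedullin, Adm (1.15 ± 0.15), higher. Of proteasome subunits 0 of 28 were higher and 12 lower, but 24 were lower with median centring and 1 with quantile normalization. Of cytosolic ribosomal protein genes 7 of 33 were lower, with 19 and 1 in the same settings. Lower proteasome subunits numbered 2 to 15 and lower ribosomal genes 0 to 9 with 1 array left out, the fewest without CDAHFD array 2, so neither count is stable to scaling or to single arrays. 7 of the iron handling genes were lower with median centring or the percentile over all probes. 5 of the iron handling genes were lower and 3 of the hypoxia-induced genes were higher with normexp background correction. 3 of the hypoxia-induced genes were lower with quantile normalization. Higher circadian clock genes numbered 6 without control array 2. In other settings the call ended for Per3 and Car9 with normexp background correction (adjusted p = 0.6). With single arrays left out, significance was lost for Nr1d1 without control array 2 and CDAHFD array 1 (adjusted p = 0.0531 to 0.077) and Car9 without CDAHFD array 2 (adjusted p = 0.0524).

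Markers of tissues that border the liver were few. Of 10 pancreatic acinar markers 4 were measured, and Ctrb1 (-1.32 ± 0.24, adjusted p = 0.0027) was lower. Of 9 mesothelial markers 2 were measured: mesothelin, Msln (-0.06 ± 0.25, adjusted p = 1), did not pass and Wt1 (at least 1.9-fold higher) was higher. Of 10 adipocyte markers 6 were measured, and the adipocyte-defining Adipoq, Plin1 and Lep were not above background in either diet. Adipsin, Cfd, fell below background (at least 2.79-fold lower), whereas the droplet gene Cidec and Fabp4, which macrophages and fatty hepatocytes also express, rose. The median level over the measured adipocyte markers was -3.98 and -4.99 on the control arrays and -3.29 and -3.15 on the CDAHFD arrays. With normexp background correction the sign of Wt1 turned (-0.03, adjusted p = 0.37). With 1 array left out, the call ended for Cfd without control array 1 and CDAHFD arrays 1 and 2 (adjusted p = 0.077 to 0.14) and Wt1 without CDAHFD array 2 (adjusted p = 0.067).

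The 2-week state was set against the weeks before and after. At 6 weeks 5578 genes were called (41.8%), and at 1 week 4002 (30%). Of the 2-week calls 4260 were called in the same direction at 6 weeks (80.8% of the 2-week calls and 76.4% of the 6-week calls), and 2 were called in the opposite direction. These 2 comparisons share no array, but in both weeks controls lay in column 3 and CDAHFD arrays in column 4 of a slide, and the 6-week arrays were on another slide, so diet and column cannot be told apart in either week, nor week and slide. The difference between them was tested gene by gene: 0 of 13333 genes passed (0%) in limma, with 825 at an unadjusted p below 0.05 and a smallest adjusted p of 0.0846. That interaction had a median SE of 0.25, and a p that misses the threshold does not show that the weeks act alike. Leaving out 1 array gave 0 to 38 calls, the most without CDAHFD replicate 2 at 6 weeks.

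List medians gave the course. Mitosis genes were at 2.43, 2.61 and 2.12 at 1, 2 and 6 weeks, and DNA replication genes at 0.55, 0.94 and 0.51. Matrix proteins were at 0.86, 1.80 and 2.04 and lipid-associated macrophage markers at 1.12, 2.16 and 2.77. Interferon-induced genes were at 1.27, 1.56 and 1.13. Cholangiocyte markers were at -0.01, 0.48 and 1.16 and sinusoidal endothelial markers at -0.14, -0.15 and -0.60. P450 genes stayed near one level, at -1.31, -1.50 and -1.27, and so did urea cycle and amino acid genes, at -0.87, -0.82 and -0.64. Medians of lists have no test here, and all weeks share the probes and the spread of the fit. Genes entered, and their probes were chosen, by signal on the 2-week arrays alone. That choice can favour larger gains at 2 weeks than at 1 or 6 weeks, and its part in these courses was not tested.

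**Figure D4:**
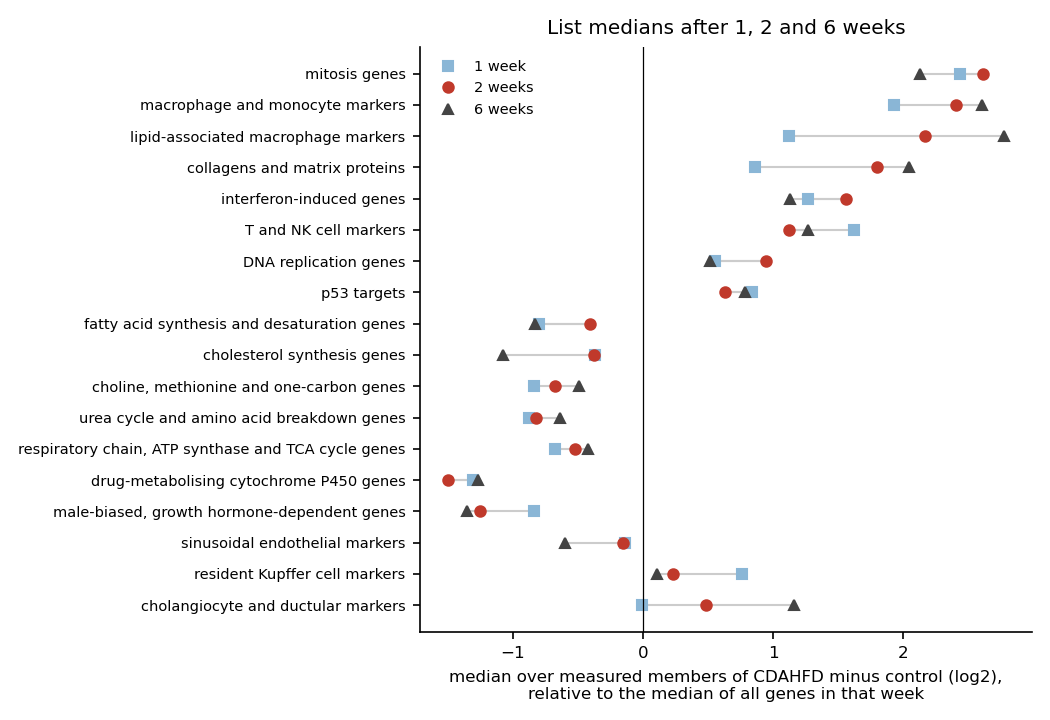
Median difference of the measured members of 18 gene lists (CDAHFD minus control, log2, relative to the median of all genes in that week) after 1, 2 and 6 weeks. Matrix and lipid-associated macrophage medians at 2 weeks lie between those of 1 and 6 weeks, and the mitosis median is highest at 2 weeks. Genes and probes were chosen by their signal on the 2-week arrays.

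The 2-week and 1-week diet effects differed in 73 genes (0.548%), 29 with a higher difference at 2 weeks (0.218%) and 44 with a lower one (0.33%), with 1926 genes at an unadjusted p below 0.05. In this fit the 1-week control is 1 array. Rap2b, a Ras-related GTPase, differed by 3.74 ± 0.41 (adjusted p = 0.00965). It was at -5.21 on the 1-week control array, at -6.03 and -6.20 on the 1-week CDAHFD arrays, and at -8.55 and -8.38 on the control arrays and -5.69 and -5.60 on the CDAHFD arrays at 2 weeks. Mir17hg, the host transcript of a microRNA cluster, differed by -3.99 ± 0.45 (adjusted p = 0.00965). It was at -6.56 on the 1-week control array and at -2.45 and -2.74 on the 1-week CDAHFD arrays, and its 2-week arrays of both diets lay between -3.14 and -2.32. For both genes the single 1-week control array lay apart from the 2-week controls, and the CDAHFD arrays of the weeks lay near each other. With all 12 arrays 179 genes were called, 53 of them shared with the 73, and of the 16 genes named by their size 8 were called. Leaving out 1 array gave 1 to 210 calls, 1 without CDAHFD replicate 1 at 2 weeks, 3 without CDAHFD replicate 1 at 1 week, 17 without CDAHFD replicate 2 at 1 week or at 2 weeks, 45 without control replicate 1 at 2 weeks, and 207 and 210 without CDAHFD replicate 1 and 2 at 6 weeks.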

How the data were processed

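Each array held 1 liver RNA sample, of which 150 ng was labelled with Cy3 per the labels' protocols. The deposited files are scanner output with background-subtracted, linear processed intensity per spot, made by the authors with Agilent Feature Extraction (11.5.1.1 per the file headers, 10.7 per the submitters' processing notes) and not scaled between arrays. Spots of 1 probe were averaged after control spots and outlier spots were left out, probes were named through RefSeq accessions (GRCm38.p6, names only), and log2 intensity was taken relative to the 75th percentile over 20920 probes that all 11 fitted arrays had well above background. A gene was tested if both 2-week arrays of a diet had a probe of it well above background, and was read by its brightest such probe. For 30 called genes another probe of the gene was called in the opposite direction. The fit (limma 3.58.1, lmFit and eBayes with trend and robust, R 4.3.3, two-sided) had a mean for each of the 6 groups, 5 residual degrees of freedom and Benjamini-Hochberg adjustment. The script recovered known changes when tested on simulated data. Those data had 1 value per gene, all marked above background, so the filter and the choice of probes were not tested by them. The 60 gene lists (1316 symbols, 1184 measured) and the comparison itself were chosen with earlier results of these data known, as was the array left out.

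Genes were named by a rule: 15 called genes per direction, by size of the difference, the first 3 members and the 5 smallest adjusted p of each list, and 8 genes in each direction of a difference between weeks. Named outside it, after their values were seen, were Slc27a5, Cth, Mat1a, Abcc4, Afmid, Ccr2, Itgam, Ly6g, Cxcl1, Ccl4, Ccl25, Cxcl12, Ifit1, Ifit3, Usp18, H2-K1, Ctsl, Cdc20, Plk1, Ndc80, Hmmr, Mcm10, Tk1, Thbs1, Thbs2, Fn1, Mmp12, Postn, Smad7, Krt8, Tpm1, Gpc3, Areg, Ereg, Fgfr4, Klb, Herpud1, Asns and Sod1. Some members of the lists are not reported here. Alternatives covered scaling, background, filters, probes, the moderation of variances, array weights, the arrays fitted and a replicate block. The files hold median, not mean, foreground signals, so normexp (offset 50) used median signals. Replicate arrays of a diet differed by an SD of 0.43 (control) and 0.27 (CDAHFD) over genes at 2 weeks.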

Additional observations from a re-analysis of the deposited data

Results flagged for a closer look

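A limma test of the difference between the 2-week and 1-week diet effects singled out 73 genes, of which the 8 with the largest difference in each direction are given here, with the 1-week control resting on 1 array. The same test with all 12 arrays, in which that control has 2 arrays, is given beside each, and 8 of the 16 passed there. The diet difference was higher at 2 weeks for Rap2b (3.74 ± 0.41, adjusted p = 0.00965, and 2.74 with all 12 arrays, adjusted p = 0.0889) and Slc9a7 (3.10 ± 0.34, adjusted p = 0.00965, and 1.77 with all 12 arrays, adjusted p = 0.4). They were followed by Themis (2.97 ± 0.52, adjusted p = 0.0473, and 3.47 with all 12 arrays, adjusted p = 0.0267) and Tbx20 (2.72 ± 0.35, adjusted p = 0.0136, and 1.73 with all 12 arrays, adjusted p = 0.247). Next came Cib3 (2.65 ± 0.36, adjusted p = 0.0167, and 2.22 with all 12 arrays, adjusted p = 0.0467) and Vsig8 (2.35 ± 0.31, adjusted p = 0.0136, and 2.99 with all 12 arrays, adjusted p = 0.0262). Smaller values were those of Enpp5 (2.30 ± 0.26, adjusted p = 0.00965, and 1.26 with all 12 arrays, adjusted p = 0.449) and Treml1 (2.14 ± 0.36, adjusted p = 0.039, and 1.5 with all 12 arrays, adjusted p = 0.173).

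The diet difference was lower at 2 weeks for Mir17hg (-3.99 ± 0.45, adjusted p = 0.00965, and -4.27 with all 12 arrays, adjusted p = 0.0044) and Col27a1 (-3.22 ± 0.48, adjusted p = 0.0227, and -2.31 with all 12 arrays, adjusted p = 0.133). Then came Col7a1 (-3.04 ± 0.54, adjusted p = 0.0487, and -2.36 with all 12 arrays, adjusted p = 0.0925) and Bbip1 (-2.84 ± 0.50, adjusted p = 0.0473, and -1.89 with all 12 arrays, adjusted p = 0.224). The list went on with Slc25a27 (-2.67 ± 0.34, adjusted p = 0.0136, and -2.36 with all 12 arrays, adjusted p = 0.0236) and Pisd-ps3 (-2.46 ± 0.19, adjusted p = 0.00229, and -2.31 with all 12 arrays, adjusted p = 0.00182). It ended with Zfp692 (-2.34 ± 0.29, adjusted p = 0.0136, and -1.96 with all 12 arrays, adjusted p = 0.0293) and Ttc6 (-2.33 ± 0.35, adjusted p = 0.0219, and -2.20 with all 12 arrays, adjusted p = 0.0143). Themis, a T cell signalling protein, was at -8.96 on the 1-week control array, -8.06 and -8.76 on the 1-week CDAHFD arrays, -8.37 and -8.64 on the 2-week controls and -5.05 and -4.94 on the 2-week CDAHFD arrays. The pseudogene Pisd-ps3 was at -4.58 on the 1-week control array, -1.97 and -2.01 on the 1-week CDAHFD arrays, -2.10 and -2.19 on the 2-week controls and -1.99 and -2.06 on the 2-week CDAHFD arrays. Col27a1, a fibrillar collagen chain, was at -8.20 on the 1-week control array, -4.99 and -5.02 on the 1-week CDAHFD arrays, -5.95 and -5.27 on the 2-week controls and -5.92 and -5.37 on the 2-week CDAHFD arrays. Each of the 16 genes has its own array values in the same fit, and the part of the single 1-week control array in these differences was not tested.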

How the results depend on the processing

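The counts of calls moved with scaling and with single arrays. The fit had 5271 calls at 2 weeks, 3258 higher and 2013 lower. Lower calls were 3769 with median centring, 3792 with the percentile over all probes, 3107 with normexp and 4160 with no filter, and higher calls were 1957 with normexp. Requiring a 2-fold change as well left 2433 genes, 1864 higher and 569 lower. Leaving out 1 array gave 3389 to 5927 calls, 2303 to 3549 higher and 1086 to 2378 lower. The difference between 2 and 6 weeks gave 0 genes in each other setting that used both weeks, and 0 to 38 with 1 array left out. The difference between 2 and 1 weeks gave 73 genes, 47 with normexp, 188 with array weights, 179 with all 12 arrays and 1 to 210 with 1 array left out. Fits without the only 1-week control array or with only the 2-week arrays give no such difference.

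Deviations of arrays with the same replicate number correlated at 0.21 (2 weeks) and 0.11 (6 weeks), each over 1 pair of groups, and the number also marks the slide row, so the numbers do not establish pairs. With a replicate block 5211 genes were called, 3236 higher and 1975 lower, with 0 and 54 for the differences from 6 and 1 weeks.

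Of 294 called genes named, 250 lost their call in none of the other settings that tested them. A gene that a filter removed from a setting was not counted as a loss there. With 1 array left out some calls were lost, as given for genes above. In all, 7 called genes changed sign. The cause was not tested. With quantile normalization signs turned for Alb (0.41), Mup1 (0.13), H2-K1 (0.53), Actb (0.53), Acaa2 (0.094) and C3 (0.017). With normexp they turned for Cd209a (0.12), Epcam (-0.38), Wt1 (-0.031) and Rap2b (0.14), and with the mean of probes for Itgam (1.04), H2-K1 (0.45) and Tpm1 (0.89). Signs are those of the 2-week difference before the median shift, and values in brackets are after it. The shift was -0.14 with normexp, so Cd209a and Rap2b are printed above 0. Atp5b was at -0.77 without control replicate 2 and at 0.91 without control replicate 1 at 2 weeks. Signal over background limits the 843 genes seen on CDAHFD arrays only, whose control level is a bound.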
